A study of Mus musculus with 12 samples.

Results

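The small leucine-rich proteoglycans are described here by 8 genes, *Lum*, *Aspn*, *Dcn*, *Bgn*, *Fmod*, *Ogn*, *Omd* and *Prelp*, followed across 4 groups of mouse cochlear libraries. The genes were taken by symbol from the authors' table of normalized counts, in which they are 8 of 27754 entries with distinct identifiers. All 8 passed the filter of 10 on the mean normalized count, as 18400 genes did, and so entered the tests. They were chosen by family name, with earlier results of these data known.

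The study asked how the cochlear sensory epithelium responds to Wnt activation at an earlier and a later neonatal age. Treated pups carried Sox2-CreER/+ and β-catenin-flox(Exon3)/+, so that Cre under control of *Sox2*, a supporting cell gene, removes exon 3 of the β-catenin allele and leaves a stabilized protein. Untreated pups carried β-catenin-flox(Exon3)/+ with no Cre. Treated and untreated pups alike were of mixed C57BL/6 and CD1 background and received tamoxifen through the milk of a mother injected with 100 µl at 50 µg/µl on postnatal day 1 (the P1 groups) or day 4 (the P4 groups). Tissue was taken 72 h later, at postnatal day 4 or 7, and each library came from both ears of 1 pup. Of 12 libraries described, 11 were in the table. Each group had 3, except for P4 treated, which had replicates 1 and 3 only. The second P4 treated library was therefore not analysed here. The Cre acts in Sox2-positive cells, whereas all cells of the freed epithelium were sequenced. Fewer cells of a type and less RNA per cell cannot be told apart in these bulk values.

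Small leucine-rich proteoglycans are secreted extracellular matrix proteins built on a core of leucine-rich repeats, many of which carry glycosaminoglycan chains. They bind collagen and set the thickness and spacing of its fibrils, and several bind growth factors such as transforming growth factor β. They are grouped by sequence into classes. Decorin (*Dcn*), biglycan (*Bgn*) and asporin (*Aspn*) belong to class I, lumican (*Lum*), fibromodulin (*Fmod*), *Prelp* and osteomodulin (*Omd*, or osteoadherin) to class II, and osteoglycin (*Ogn*, or mimecan) to class III. In the cochlea, supporting cells rest on a fibrous layer and secrete the tectorial membrane, both of them collagen-containing matrices.

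Of the 8 genes, 7 lie in clusters of family members, given here in GRCm38 (mm10), the build that the authors aligned to. On chromosome 10, *Dcn* (97479609 to 97518143) is followed after 47.0 kb by *Lum* (97565128 to 97572703), after a further 34.2 kb by *Kera* and after 30.4 kb by *Epyc* (97644068 to 97682454), all on the plus strand. On chromosome 13, *Ecm2* is followed after 11.7 kb by *Aspn* (49544443 to 49567565), after 14.9 kb by *Omd* (49582462 to 49592822) and after 15.2 kb by *Ogn* (49608046 to 49624501), also on the plus strand. On chromosome 1, *Prelp* (133910304 to 133921414, minus strand) lies 115.8 kb from *Fmod* (134037254 to 134048277, plus strand), and *Optc* lies 2.3 kb from *Prelp*. *Bgn* stands alone on chromosome X (73483602 to 73495933).

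The library kit does not mark strand, so reads from genes on opposite strands that share exon sequence cannot be told apart. *Aspn*, *Omd* and *Ogn* lie within *Cenpp*, which runs on the other strand, but *Aspn* shares only 7 bp of exon with it and the other two share 0 bp. *Cenpp* itself was at 53 to 126 normalized counts. *Prelp* shares 350 bp of exon with the antisense gene *Gm15851*, which was at 0 to 2 normalized counts in every library. Overlaps were looked up only among the family genes and a few other genes named beforehand. None of the other 4 members overlapped a gene of that set, and their overlap with further annotated genes was not examined.

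The 3 neighbours on chromosome 13 are shown by the 250 bases before their start sites because they had unlike levels and unlike changes with age, described below. The sequences are RefSeq's for GRCm38.p6, plus strand, at chr13:49544193-49544442 for *Aspn*, chr13:49582212-49582461 for *Omd* and chr13:49607765-49608014 for *Ogn*. Distances are counted from the start sites of these windows, which can differ from the gene starts given above. For *Ogn* the printed bases end at 49608014, whereas the gene start given above is 49608046. Capitals mark matches on either strand to CTTTGA, the core of the site bound by the TCF/LEF factors through which β-catenin acts, or to TATAAA, the TATA box.
Aspn: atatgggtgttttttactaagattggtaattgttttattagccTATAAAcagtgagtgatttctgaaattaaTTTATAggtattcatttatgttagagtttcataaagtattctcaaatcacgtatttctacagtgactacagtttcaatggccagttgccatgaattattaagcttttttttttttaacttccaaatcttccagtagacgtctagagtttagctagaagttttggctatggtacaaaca
Omd: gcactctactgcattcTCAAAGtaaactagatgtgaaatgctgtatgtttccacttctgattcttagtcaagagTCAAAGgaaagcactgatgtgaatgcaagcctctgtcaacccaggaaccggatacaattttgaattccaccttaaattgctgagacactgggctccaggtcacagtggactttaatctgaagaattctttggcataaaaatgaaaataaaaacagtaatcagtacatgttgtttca
Ogn: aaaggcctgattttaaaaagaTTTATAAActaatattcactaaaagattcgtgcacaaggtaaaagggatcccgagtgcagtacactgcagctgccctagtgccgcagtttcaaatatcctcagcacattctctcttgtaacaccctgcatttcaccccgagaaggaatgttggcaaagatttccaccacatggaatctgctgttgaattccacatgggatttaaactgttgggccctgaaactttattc
Promoter windows of 300 bases, from 250 before to 50 after the start, were at hand for 6 of the 8 members, all but *Lum* and *Dcn*. CTTTGA was found in the windows of *Omd*, at 234 and 176 bases before the start, and of *Bgn*, at 146 bases before it, and in 16% of all 32851 windows. TATAAA was found at 207 and 178 bases before the start of *Aspn* and, as overlapping matches on the 2 strands, at 229 and 227 bases before that of *Ogn*. It was in 13.6% of all windows. TGANTCA, the AP-1 site, was in none of the 6 windows and in 7.81% of all windows. CANNTG, the E-box, was in 5 of the 6 windows, all but that of *Omd*, and in 72.3% of all windows, and it is not capitalized. A match of letters is not evidence of binding, and no binding was measured.

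The members spanned the range of expression from among the most abundant transcripts to the edge of detection. *Lum* ranked between 10 and 46 among the 18400 genes tested, depending on the library, and *Dcn* between 99 and 230. *Omd* ranked between 14617 and 16043, and *Aspn* between 10206 and 17506. Per kb of the principal transcript, *Lum* averaged 26123 ± 1180 normalized counts (SD, n = 3) in P1 untreated and 44444 ± 3190 (SD, n = 3) in P4 untreated libraries, and *Dcn* 14363 ± 1590 and 17878 ± 745. The next member per kb in P1 untreated libraries was *Bgn*, at 754.0 ± 188 normalized counts per kb, and in P4 untreated libraries again *Bgn*, at 413.8 ± 73.2. *Omd* was the lowest member per kb in 2 groups, P1 untreated (18.2 ± 4.67) and P1 treated (11.3 ± 1.12), while *Aspn* was the lowest in P4 untreated (8.4 ± 4.72) and P4 treated libraries (9.0, with both libraries at the same count).

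*Lum* and *Dcn* together made up nearly all of the members' normalized counts. The 8 genes summed to 88331 to 101723 normalized counts in P1 untreated, 117217 to 164457 in P1 treated, 136658 to 152410 in P4 untreated and 171458 and 171541 in P4 treated libraries. *Lum* held 65.4 to 68.9% of that sum in P1 untreated, 70.2 to 80.3% in P1 treated, 74.9 to 77.1% in P4 untreated and 82.2 to 82.4% in P4 treated libraries. *Lum* thus held a larger share in every treated library than in any untreated library of the same age. The ratio of *Lum* to *Dcn* was 2.34 to 2.67 in P1 untreated and 3.19 to 3.64 in P4 untreated libraries. In P4 treated libraries it was 5 and 4.91. In P1 treated replicate 1 it was 2.67, the same as in P1 untreated replicate 1, against 4.95 and 4.43 in replicates 2 and 3.

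**Figure D1:**
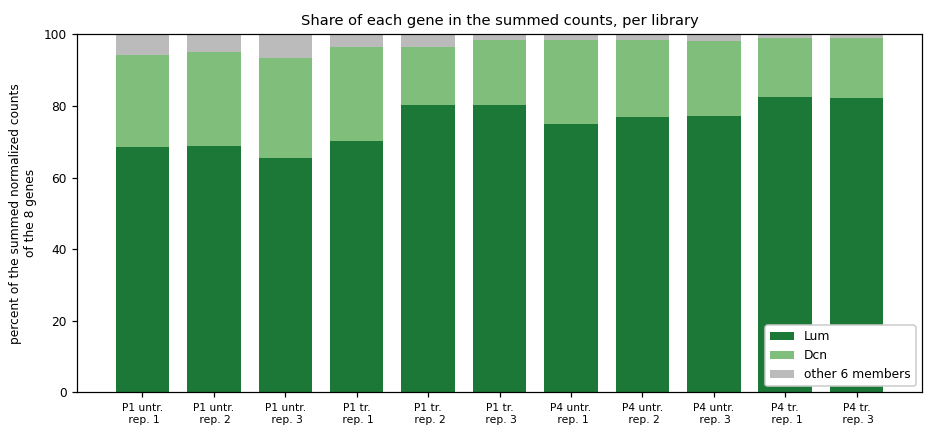
Share of *Lum*, *Dcn* and the other 6 members in the summed normalized counts of the 8 genes, in percent, as a stacked bar for each of the 11 libraries. *Lum* rises from 65.4 to 68.9% in P1 untreated libraries to 82.2 to 82.4% in P4 treated libraries.

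Facts of the libraries that touch these values are given first. The normalized counts summed to 41.2 to 44.2 M per library. *Sox2*, the Cre driver, averaged 5493 normalized counts in P1 treated and 8778 in P1 untreated libraries (log2 fold change -0.67, adjusted p = 0.03 from limma), and *Lgr5*, a Wnt-responsive supporting cell gene, rose from 2494 to 9011 (log2 fold change 1.86, adjusted p = 0.00087). Only treated pups carried Sox2-CreER, and the paper names reduced *Sox2* in such knock-in alleles as a limitation. Effects of that allele and of stabilized β-catenin therefore cannot be told apart where treated and untreated libraries are compared. Hair cell and supporting cell markers were present in all libraries, with summed levels of 24029 to 43478 and 278797 to 544287 normalized counts. *Xist*, which is made in female cells, was at 13 to 26 in P1 treated libraries, at 16, 3030 and 2794 in P1 untreated replicates 1 to 3, at 4180 and 3268 in P4 treated and at 32 to 39 in P4 untreated libraries. At P4, therefore, treatment and *Xist* level cannot be told apart. The freed epithelium still held mesenchyme. The summed level of 19 mesenchyme markers was 96480 to 120563 in P1 untreated and 33399 to 109545 in P1 treated libraries (109545, 55912 and 33399 in replicates 1 to 3), and 72261 to 93175 in P4 untreated and 38164 to 62879 in P4 treated libraries.

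Groups were compared with limma on log2(normalized count + 1). A call needed an adjusted p under 0.05, with Benjamini-Hochberg adjustment over the 18400 genes, and a higher mean more than 25% above the lower one. Log2 fold changes are the first group minus the second.

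The first question was whether the members differed between treated and untreated libraries at P1. *Lum*, which encodes a keratan sulphate proteoglycan that spaces collagen fibrils, rose, and no other member was called in either direction. *Lum* was at 64459, 60859 and 66546 normalized counts in P1 untreated and at 100463, 94107 and 132049 in P1 treated libraries. Every treated library was above every untreated library. Treated libraries averaged 108900 ± 20300 (SD, n = 3) and untreated ones 63950 ± 2880 (SD, n = 3), which on the log2 scale differ by 0.75 (95% interval 0.49 to 1.01, standard error 0.118, adjusted p = 0.0364 from limma). This 1 call among 8 members stands beside 0.353% of all genes called in this comparison, 0.261% higher and 0.0924% lower in treated libraries. The call sat close to the threshold. Without P1 treated replicate 3 the difference was 0.61 (adjusted p = 0.0531), and without P1 untreated replicate 1, 2 or 3 it was 0.76, 0.72 or 0.78 (adjusted p = 0.0979, 0.101 and 0.132), so that the call was lost each time while the size held.

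*Bgn*, a chondroitin or dermatan sulphate proteoglycan of bone and connective tissue, had the largest difference of the other members, but it did not pass the test. It was at 1302, 2042 and 2129 normalized counts in P1 untreated and at 1652, 592 and 565 in P1 treated libraries. Treated replicate 1 lay within the untreated range and the other 2 treated libraries lay below it. The difference was -1.12 on the log2 scale (adjusted p = 0.274 from limma, standard error 0.384), and without P1 treated replicate 1 it was -1.62 and called (adjusted p = 0.0193). P1 treated replicate 1 was also the treated library with the most mesenchyme marker counts. *Bgn* is on the X chromosome, and the P1 untreated library with low *Xist* had the lowest *Bgn* of its group. The part of either in this difference was not tested.

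*Aspn* and *Omd* were lower in every P1 treated than in every P1 untreated library without being called. *Aspn*, a decorin relative with a run of aspartates that carries no glycosaminoglycan chain, was at 478, 474 and 521 normalized counts in P1 untreated and at 368, 418 and 221 in P1 treated libraries (log2 fold change -0.60, adjusted p = 0.578 from limma). *Omd*, a keratan sulphate proteoglycan known from mineralized tissue, was at 51, 30 and 42 in P1 untreated and at 25, 28 and 23 in P1 treated libraries (log2 fold change -0.65, adjusted p = 0.415). Among all genes, 8.33% were lower without overlap in this comparison and 6.95% were higher without overlap.

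The remaining 4 members overlapped between the P1 groups. *Prelp*, which anchors basement membranes to connective tissue, was at 1151, 657 and 1144 normalized counts in P1 untreated and at 818, 799 and 323 in P1 treated libraries (log2 fold change -0.68, 95% interval -1.46 to 0.11). *Fmod*, a collagen-binding keratan sulphate proteoglycan, was at 509, 431 and 549 against 427, 445 and 316 in treated libraries (-0.33, interval -0.94 to 0.27). *Ogn* was at 1902, 677 and 2365 against 1738, 1815 and 1126 (0.07, interval -0.90 to 1.05). *Dcn*, which binds collagen and transforming growth factor β, was at 24175, 23161 and 28427 against 37637, 19013 and 29834 (0.14, interval -0.29 to 0.58). The interval of *Ogn* held changes of 1.5-fold in both directions, so neither was excluded. Those of *Prelp* and *Fmod* held a fall of that size, which was not excluded, but no such rise. The median of the 8 log2 fold changes was -0.47, beside 0 over all genes tested.

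**Figure D2:**
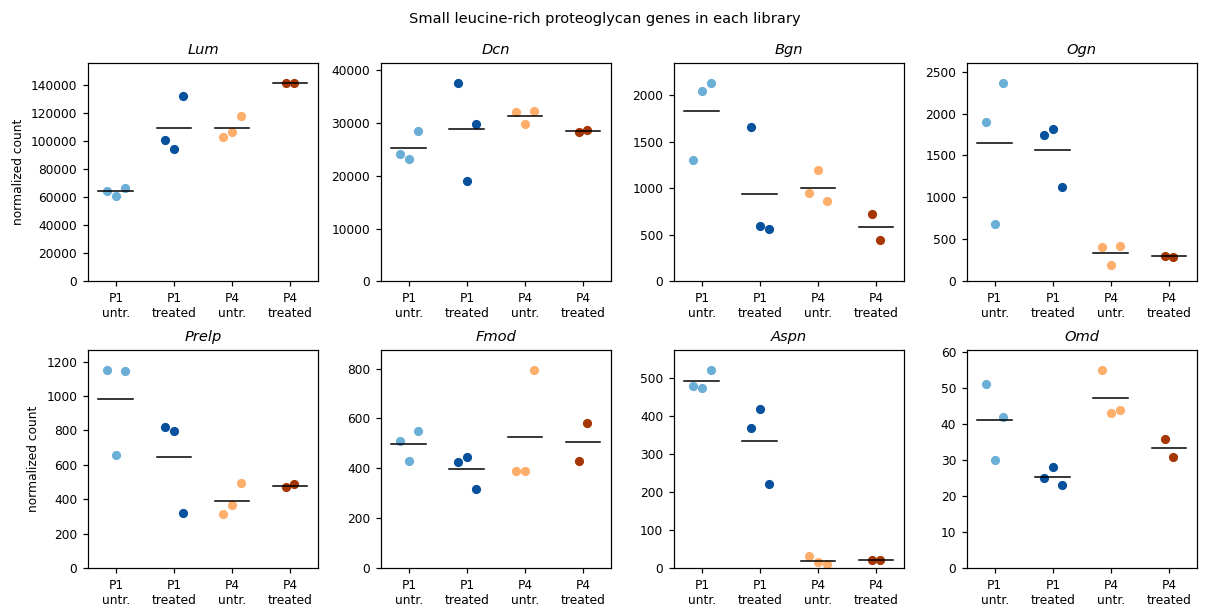
Normalized counts of each member in each library, by group, with the group mean as a bar; each panel has its own linear axis from 0. *Lum* is higher in every P1 treated than every P1 untreated library, and *Aspn* drops from 221 to 521 in P1 libraries to 11 to 32 in P4 libraries.

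At P4, no member was called between treated and untreated libraries, beside 0.0543% of all genes (0.0326% higher and 0.0217% lower). *Lum* was at 102410, 106548 and 117522 normalized counts in P4 untreated and at 141234 and 140953 in P4 treated libraries. Both treated libraries lay above all untreated libraries. The log2 fold change was 0.38 (95% interval 0.08 to 0.67, standard error 0.132, adjusted p = 0.328 from limma). Among all genes, 16.6% were higher and 16.9% lower without overlap at P4, where only 2 treated libraries were compared.

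*Bgn*, *Omd* and *Dcn* were lower in both P4 treated libraries than in every P4 untreated library, and none of them was called. *Bgn* was at 943, 1199 and 860 normalized counts in untreated and at 721 and 445 in treated libraries (log2 fold change -0.81, adjusted p = 0.502 from limma). *Omd* was at 55, 43 and 44 against 36 and 31 (-0.48, adjusted p = 0.593). *Dcn* was at 32108, 29925 and 32265 against 28242 and 28734, a difference of -0.14 (adjusted p = 0.841). *Omd* was thus lower in treated libraries without overlap at both ages, at levels of 23 to 55 normalized counts, and called at neither. At P1 the closest libraries of the groups were at 28 and 30 normalized counts. Among all genes, 8.33% were lower without overlap at P1 and 16.9% at P4, and the share lower at both ages was not counted.

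The other 4 members overlapped at P4. *Aspn* was at 32, 16 and 11 normalized counts in P4 untreated libraries and at 21 in each P4 treated library (log2 fold change 0.22, 95% interval -0.68 to 1.12). *Ogn* was at 406, 196 and 417 against 305 and 287 (-0.12, interval -1.21 to 0.97). *Prelp* was at 315, 366 and 497 against 471 and 490 (0.32, interval -0.56 to 1.19). *Fmod* was at 389, 391 and 794 against 428 and 580 (0.01, interval -0.66 to 0.69). The highest *Fmod* value of all 11 libraries was that of P4 untreated replicate 3. The median of the 8 log2 fold changes at P4 was -0.05, beside 0 over all genes.

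Whether the treatment difference itself changed with age was tested by the interaction of the 2 factors. No member was called, and no gene of the 18400 was, with 1067 genes at an unadjusted p under 0.05 (5.8%), none of them a member. The *Lum* difference at P1 exceeded that at P4 by 0.38 on the log2 scale (95% interval -0.02 to 0.77, adjusted p = 0.856 from limma). The interaction was -0.99 for *Prelp* (interval -2.17 to 0.18) and -0.82 for *Aspn* (interval -2.03 to 0.39). A call for *Lum* at P1 and none at P4 is therefore not shown to be a difference between the ages.

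**Figure D3:**
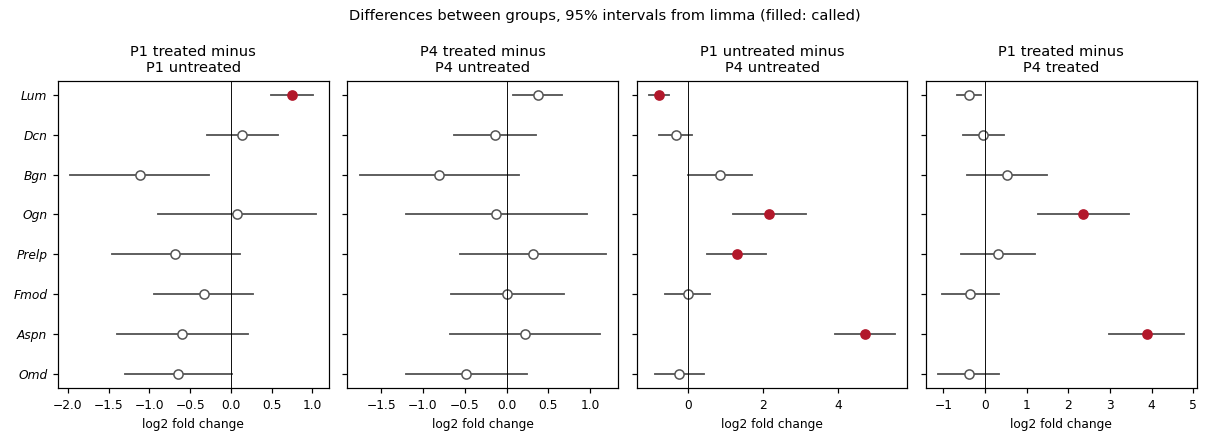
Log2 fold change of each member in the 4 comparisons of groups, with 95% intervals from limma; filled points were called, and each panel has its own axis. *Lum* is the filled member for treatment at P1 (0.75), none is filled for treatment at P4, and *Aspn*, *Ogn*, *Prelp* and *Lum* are filled between untreated ages.

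The largest differences of the members were with age. Between P1 and P4 untreated libraries, 4 of the 8 members were called, 3 higher at P1 (*Aspn*, *Ogn* and *Prelp*) and 1 lower (*Lum*), beside 19.9% of all genes, 10.5% higher and 9.38% lower. The median of the 8 log2 fold changes was 0.42, beside 0.02 over all genes. The P1 untreated and P4 untreated libraries are the controls of the treatment comparisons above, so these comparisons share libraries.

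*Aspn* fell the most. It was at 478, 474 and 521 normalized counts in P1 untreated and at 32, 16 and 11 in P4 untreated libraries, with no overlap. The P1 level was 26-fold the P4 level (log2 fold change 4.70 with a standard error of 0.363, adjusted p = 7.4e-05 from limma). In treated libraries it was at 368, 418 and 221 at P1 and at 21 in both libraries at P4, a 14.8-fold difference (3.88, adjusted p = 0.000826). The P1 untreated values of *Aspn* lay close together, with a coefficient of variation of 5.31%.

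*Ogn*, once described as a bone-forming factor and present in many connective tissues, also fell with age. It was at 1902, 677 and 2365 normalized counts in P1 untreated and at 406, 196 and 417 in P4 untreated libraries. P1 untreated replicate 2 was the lowest of its group and still above all P4 libraries. The difference was 4.5-fold (log2 fold change 2.17 with a standard error of 0.441, adjusted p = 0.00704 from limma). In treated libraries it was 5.14-fold (1738, 1815 and 1126 against 305 and 287, log2 fold change 2.36, adjusted p = 0.0152). The call in treated libraries was lost without P4 treated replicate 1 (2.41, adjusted p = 0.0855) or replicate 3 (2.32, adjusted p = 0.107), each of which leaves 1 library in that group.

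*Omd*, which lies between *Aspn* and *Ogn* on chromosome 13, did not share their difference. It was at 51, 30 and 42 normalized counts in P1 untreated and at 55, 43 and 44 in P4 untreated libraries, with a log2 fold change of -0.23 (95% interval -0.88 to 0.43). The interval excludes a difference of the size seen in either neighbour. *Ecm2*, the next family gene before *Aspn*, was at 90 to 143 in P1 untreated and 113 to 163 in P4 untreated libraries (log2 fold change -0.27, interval -0.97 to 0.43). The ratio of *Aspn* to *Omd* was 9.37 to 15.8 in P1 untreated and 0.25 to 0.582 in P4 untreated libraries.

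*Prelp* was higher at P1 in untreated libraries. It was at 1151, 657 and 1144 normalized counts at P1 and at 315, 366 and 497 at P4, with no overlap, a 2.47-fold difference (log2 fold change 1.30 with a standard error of 0.354, adjusted p = 0.0263 from limma). The call was lost without P1 untreated replicate 1 or 3 (1.17 each, adjusted p = 0.0847 and 0.0881) or without P4 untreated replicate 1 or 2 (1.16 and 1.27, adjusted p = 0.0831 and 0.0654). In treated libraries *Prelp* overlapped between ages (0.31, interval -0.57 to 1.19).

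*Lum* was the member that was called in the other direction. It averaged 63950 ± 2880 normalized counts (SD, n = 3) in P1 untreated and 108800 ± 7810 (SD, n = 3) in P4 untreated libraries, a 1.7-fold rise (log2 fold change -0.77 for P1 minus P4, standard error 0.118, adjusted p = 0.00179 from limma). In treated libraries the means were 108900 ± 20300 (SD, n = 3) at P1 and 141100 ± 199 (SD, n = 2) at P4, again without overlap, but the difference of -0.39 was not called (adjusted p = 0.0856). Without P1 treated replicate 3 it was -0.54 and called (adjusted p = 0.0108). In the order of group means, P4 treated was above P1 treated, P1 treated and P4 untreated overlapped at nearly equal means, and P1 untreated was below all others.

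The other 3 members were not called with age. *Bgn* was at 1302 normalized counts or more in P1 untreated libraries and at 1199 or less in P4 untreated libraries (log2 fold change 0.85, adjusted p = 0.143 from limma). *Dcn* was at 23161 to 28427 in P1 untreated and 29925 to 32265 in P4 untreated libraries, also without overlap (-0.32, adjusted p = 0.273). *Fmod* was at 431 to 549 and 389 to 794 in these groups (0.00, 95% interval -0.61 to 0.60). In all, 4 members were higher and 2 lower without overlap between untreated ages, beside 22% and 19.3% of all genes. Between treated ages the counts were 2 and 2, beside 21.8% and 21.3%, and the 2 calls there, *Aspn* and *Ogn*, stand beside 11.1% of all genes (5.63% higher and 5.42% lower at P1).

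*Bgn* tracked the mesenchyme content of the libraries more closely than the other members did. After the group means were removed on the log2 scale, its deviations correlated with the mean deviation of the 19 mesenchyme markers with a Pearson's r of 0.91 over the 11 libraries. The same coefficient was 0.54 for *Prelp*, 0.36 for *Dcn*, 0.30 for *Aspn*, 0.06 for *Ogn*, 0.03 for *Omd*, 0.02 for *Fmod* and -0.57 for *Lum*. The points share libraries and the scaling of each library, and these coefficients are descriptions without a test. Removing the 4 group means leaves fewer independent deviations than the 11 libraries, and those of the 2 P4 treated libraries mirror each other. None of 18 mesenchyme markers tested was called between treated and untreated libraries at either age, but their median log2 fold change was -1.34 at P1 and -0.85 at P4. Of these markers, 9 and 11 were lower without overlap, beside 8.33% and 16.9% of all genes. Between untreated ages, 3 of the 18 markers were called higher at P1 and 1 lower, beside 10.5% and 9.38% of all genes. Those higher were *Pdgfra* (4018 in P1 untreated, 1684 in P4 untreated), *Postn* (2246 and 368) and *Osr2* (845.7 and 98). The marker called lower was *Prrx2*, and the list's median was 1.08. Bone and cartilage markers differed in direction between untreated ages, with 2 of 8 positive. Of the 8, 0 were called higher and 2 lower at P1, beside 10.5% and 9.38% of all genes. *Ibsp* (82.33 against 1849 normalized counts) and *Bglap* (1.333 against 36.33) were lower at P1, whereas *Matn1*, the most abundant of them at P1 and named after its values were seen, was at 3929 against 724.7 and was not called (log2 fold change 2.24, adjusted p = 0.062 from limma). Their median was -0.83, and the summed level was 1760 to 11090 at P1 and 3069 to 5107 at P4. Immune markers had a median of -0.96 for treatment at P1, where 6 of 10 were lower without overlap, beside 8.33% of all genes, and none was called. The part of these other cell types in the differences of *Lum*, *Bgn*, *Aspn*, *Ogn* and *Prelp* was not tested.

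**Figure D4:**
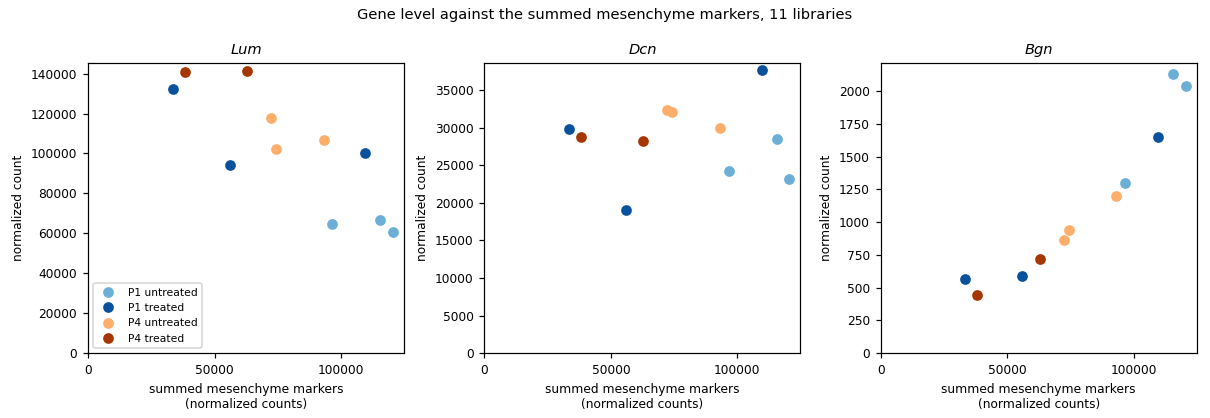
Normalized counts of *Lum*, *Dcn* and *Bgn* against the summed normalized counts of 19 mesenchyme markers, 1 point per library, coloured by group. *Bgn* runs from 445 to 2129 along with the markers, whereas *Lum* is lowest, at 60859 to 66546, in P1 untreated libraries, all of which have marker sums of at least 96480.

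Among the members themselves, deviations from the group means moved together most for *Ogn* and *Omd* (r = 0.77 over 11 libraries), *Fmod* and *Prelp* (0.70) and *Ogn* and *Prelp* (0.67), and in opposite directions for *Lum* and *Aspn* (-0.75). *Lum* and its neighbour *Dcn* had an r of 0.38, and *Dcn* and *Bgn*, the close relatives of class I, 0.59. The limits given above for deviations from group means hold here too. By the pattern over all 11 libraries, on log2(normalized count + 1) among 14788 genes with a mean of at least 50, the genes most like *Lum* were *Umodl1* (r = 0.971), *Fut2* (0.969) and *Fam83f* (0.968). Those most like *Aspn* were *Gm15387* (0.994), *Spink5* (0.994) and *Tipin* (0.987). *Bgn* was most like *Lef1* (0.977), *Zcchc24* (0.975) and *P2rx7* (0.968), and *Ogn* most like *Thsd1* (0.977), *Abhd14b* (0.968) and *Mpp4* (0.96). For *Dcn* the leading gene was *Gnas* (0.96), for *Prelp* *Rps18* (0.921), for *Omd* *Gm2810* (0.895) and for *Fmod* *Spag9* (0.861). With 11 libraries in 2 ages, a shared difference between ages is enough for a high coefficient.

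The 10 other genes of the family gave a background for the 8. The highest of all 18 per kb in every group was *Epyc*, a class III member and the far neighbour of *Lum*, which ranked between 8 and 21 among all genes. Over 1041 bp of exon, *Epyc* overlaps the non-coding gene *Gm10754* on the other strand. No value was found for *Gm10754*, so its part in the reads counted for *Epyc* is not known. *Epyc* averaged 107700 ± 12600 normalized counts (SD, n = 3) in P1 untreated, 137700 ± 33000 (SD, n = 3) in P1 treated, 150400 ± 21900 (SD, n = 3) in P4 untreated and 179600 ± 18500 (SD, n = 2) in P4 treated libraries. The mean was higher in treated libraries at each age and higher at P4 for each treatment, as for *Lum*, but no difference was called (0.34 for treatment at P1, adjusted p = 0.481 from limma; -0.48 for age in untreated libraries, adjusted p = 0.0706). *Kera*, which lies between *Lum* and *Epyc* and is best known from the cornea, was at 6, 5 and 12 normalized counts in P1 untreated and at 17, 54 and 36 in P1 treated libraries (2.02, adjusted p = 0.197). None of the 10 was called for treatment at either age, or between treated ages.

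Between untreated ages, 3 of the 10 were higher at P1 and 1 was lower, beside 10.5% and 9.38% of all genes. *Podn* fell from 21580 ± 1920 to 6492 ± 3990 normalized counts (log2 fold change 1.89, adjusted p = 0.00716 from limma), *Tsku* from 1064 to 605.3 (0.83, adjusted p = 0.00326) and *Chadl* from 61230 to 46880 (0.39, adjusted p = 0.0281). *Chadl* shares 1023 bp of exon with *L3mbtl2* on the other strand, which was at 720 to 1552. *Chad*, or chondroadherin, a cartilage matrix protein, rose from 540 to 1718 (-1.62, adjusted p = 0.00439). *Optc*, *Ecm2*, *Nyx* and *Podnl1* were at 2 to 163 normalized counts in all libraries and were not called in any comparison.

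Genes that modify these core proteins or act with them were followed in 3 lists. The first held 27 genes, for glycosaminoglycan chain synthesis and, with *Tpst1* and *Tpst2*, for tyrosine sulphation. Of these 27, 11 were higher and 3, *Tpst1* among them, lower at P1 among untreated libraries, with a median of 0.22. The sulphotransferase genes *Chst15* (14210 against 4200 normalized counts, log2 fold change 1.88), *Chst14* (1573 against 1003, 0.65) and *Chst3* (234.7 against 82.67, 1.49) and the chain-starting *Csgalnact2* (932 against 469.3, 1.01) were among those higher. The second list held 29 genes for fibrillar and other collagens, their processing and cross-linking, and further matrix proteins such as *Fn1* and *Eln*. Of these 29, 9 were higher and 2 lower, with a median of 0.49. *Col5a1* (4985 against 2187, 1.19) and *Col6a2* (2374 against 769.3, 1.63) were higher, and the cross-linking enzyme *Lox* was lower at P1 (3148 against 9787, -1.65). Of 14 genes for receptors and ligands that bind these proteoglycans, 4 were lower at P1 and none was higher, namely *Egfr* (1309 against 2411, -0.88), *Wisp1* (5323 against 10240, -0.92), *Bmp2* (371.7 against 979.7, -1.41) and *Met* (1464 against 2124, -0.52). Between treated ages the counts higher and lower were 3 and 1, 7 and 2, and 0 and 2, beside 5.63% and 5.42% of all genes. Between untreated ages the shares over all genes were 10.5% and 9.38%. None of the 3 lists had a gene called for treatment at either age, as judged with limma, although 4, 9 and 3 of their genes at P1 and 8, 6 and 6 at P4 had an unadjusted p under 0.05, beside 12.2% and 11.6% of all genes.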

How the data were processed

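Total RNA of cochlear sensory epithelium, freed from mesenchyme and neurons with Cell Recovery Solution, was sequenced in 12 libraries, all in 1 lane. The table deposited by the authors gives 1 score for each gene and library, a normalized count without decimals. Reads were aligned by the authors to mm10 with STAR 2.5.2b, featureCounts served for quality control, and DESeq2 compared gene counts summed with tximport from Sailfish estimates. The sources used here do not say which counts were scaled, so depth is known only as the sum of normalized counts, and no counting interval is given. A sample with too little Cre activation was left out by the authors.

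Of 27755 entries, 1 with a repeated identifier was left out and 626 had no symbol. Since the values are not raw counts, log2(normalized count + 1) was fitted with limma 3.58.1 (R 4.3.3), using 4 group means, 1 common estimate of the spread and eBayes with trend. Fold changes on this scale understate those of low genes. The script was tested on simulated data. Littermate pups are separate animals, so replicates are biological.

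The 8 members and all lists were chosen with earlier results of these data known. Named were all members, the 10 other family genes, up to 4 called genes of each list with the smallest adjusted p, and the 3 genes with the highest r to each member. Marker lists of further cell types were also counted. For treatment at P1, supporting cell markers gave 3 higher and 1 lower of 12, hair cell 0 of 10, bone and cartilage 0 of 8, neuron and glia 0 of 10, endothelial 0 of 9, immune 0 of 10 and melanocyte 0 of 5 markers. Over all genes tested, 0.261% were called higher and 0.0924% lower in that comparison. At P4 none of these lists had a call. Positions and lengths come from the GENCODE annotation of GRCm38, and lengths are those of the longest principal transcript.

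Replicate numbers were tested as a pairing by correlating the deviations of same-numbered libraries. Pearson's r of same-numbered libraries was 0.115 to 0.136 between untreated ages and -0.061 to 0.026 in the other comparisons. Differently numbered libraries had -0.111 to -0.021 between untreated ages. In the comparison of treatment at P1, the differently numbered pair of P1 treated replicate 2 and P1 untreated replicate 1 had 0.156. The main fit used no pairing. The alternatives were a replicate block, a pseudocount of 10, no filter, a minimum mean of 50, eBayes without trend, a fit of only the groups compared, quantile scaling, median-of-ratios scaling, a log2 *Xist* covariate, an adjusted p under 0.1, and leaving out each library in turn.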

Additional observations from a re-analysis of the deposited data

How the results depend on the processing

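For treatment at P1, 1 member was called, and none was under eBayes without trend (*Lum* 0.75, adjusted p = 0.0966 from limma), with only the groups compared (adjusted p = 0.175) or with log2 *Xist* as a covariate (0.76, adjusted p = 0.408), giving 0 each time. Leaving out a library gave 0 to 2 members, with 2 without P1 treated replicate 1 and 0 without P1 treated replicate 3 or any P1 untreated library. Between treated ages, 2 members were called, 0 with the *Xist* covariate (*Aspn* 3.87, adjusted p = 0.0952; *Ogn* 1.76, adjusted p = 0.39), and 1 to 3 with a library left out. *Prelp* between untreated ages was lost with the *Xist* covariate (1.53, adjusted p = 0.067). Gained calls were *Bgn* between untreated ages with only those groups (0.85, adjusted p = 0.0324) and *Lum* between treated ages under quantile scaling (-0.46, adjusted p = 0.0234) and at an adjusted p under 0.1. *Xist* follows treatment at P4 and ages among treated libraries, so that group and *Xist* cannot be told apart there. Of the calls lost with the covariate, *Lum*, *Aspn* and *Prelp* had differences about as large or larger, and that of *Ogn* was smaller. The replicate block changed no call of a member, between untreated ages included. Under the block, *Fmod* for treatment at P4 was -0.05 and *Dcn* between treated ages 0.08, both with the sign turned.

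Signs also turned, in uncalled members alone, with the *Xist* covariate for *Ogn* (treatment -0.30 at P1 and 0.42 at P4, interaction -0.73), *Fmod* (0.03) and *Omd* (0.05) between untreated ages, *Dcn* (0.14) and *Prelp* (-0.13) between treated ages and the *Bgn* interaction (0.90). With a library left out, treatment at P1 ranged from -0.08 to 0.41 for *Dcn* and -0.47 to 0.43 for *Ogn*. Treatment at P4 ranged from -0.11 to 0.62 for *Aspn*, -0.21 to 0.35 for *Fmod* and -0.47 to 0.07 for *Ogn*. *Dcn* between treated ages ranged from -0.26 to 0.23, *Fmod* between untreated ages from -0.17 to 0.34, and the interaction from -0.82 to 0.04 for *Bgn*, -0.36 to 0.55 for *Ogn* and -0.37 to 0.01 for *Omd*. The cause was not tested. Members kept direction and call in 236 values with a library left out and in 368 others, while 16 and 10 turned sign. Where leaving out a P4 treated library left 1, that library was assumed to vary like the rest. A minimum mean of 50 removed *Omd*.

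Over all genes, 65 were called for treatment at P1, and 32 with the block, 40 with no filter, 12 without trend, 10 with only the groups compared, 7 with *Xist*, 135 at an adjusted p under 0.1 and 11 to 371 with a library left out. At P4, 10 became 6, 18 (groups compared), 4 (no trend), 2 (*Xist*) and 6 to 22. Between untreated ages, 3659 became 1807 with *Xist*. Between treated ages, 2034 became 1326 (block), 869 (groups compared), 28 (*Xist*) and 534 and 356 without P4 treated replicate 1 and 3. For the interaction, 0 became at most 2, and 0 to 14 with a library left out. Rescaling moved the median of all genes by 0.02 or less.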
